A study of Mus musculus with 13 samples.

Results

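The Ifnb1 locus was described through 9 regions of H3K27ac signal, of 40691 in the deposited consensus table. They are the regions on mouse chromosome 4 (build mm10) that overlap Ifnb1, which encodes interferon beta, or lie within 100 kb of it. H3K27ac, acetylation of lysine 27 on histone H3, marks active promoters and enhancers, and was measured by chromatin immunoprecipitation and sequencing with the antibody Abcam ab4729. The cells were bone marrow-derived macrophages, grown in M-CSF conditioned medium, from mice of strain 129S6/SvEvTac that carried the IL10-/- and RAG2-/- genotype in every group. The cells thus cannot make IL-10 themselves, and the mice lack mature T and B cells. The 4 groups were untreated macrophages, macrophages stimulated with LPS over 195 min, those that had IL-10 beside LPS throughout the 195 min (continuous IL-10), and those stimulated over 195 min to which IL-10 was added 30 min before the end (late IL-10). LPS and IL-10 were each used at 1 ng/mL. Each group had 3 libraries, which the study's design text ascribes to independent pools of macrophages.

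Interferon beta is the type I interferon that macrophages release after LPS. LPS binds TLR4, whose TRIF branch activates the kinase TBK1 and the factor IRF3. IRF factors, NF-kB and ATF2/c-Jun then assemble on a compact enhancer just upstream of Ifnb1 and recruit the acetyltransferases CBP and p300. Secreted interferon beta acts on neighbouring cells through IFNAR1 and IFNAR2, the kinases JAK1 and TYK2, and factors such as STAT2 and IRF9, which switch on interferon-stimulated genes. IL-10 is the main cytokine that restrains LPS responses in macrophages.

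Ifnb1 lies at chr4:88522025-88522794 on the minus strand, so higher coordinates are upstream of it. Its nearest protein-coding neighbour downstream is Hacd4, an enzyme of very long chain fatty acid synthesis, and the neighbours upstream are the interferon alpha genes Ifna15, Ifna14, Ifna9 and Ifna12. The 9 regions are named L1 to L9 here, from the downstream end to the upstream end. L1 (chr4:88425731-88446255) overlaps Hacd4 and its start. L2 (chr4:88446713-88453955), L3 (chr4:88456908-88460873) and L4 (chr4:88462127-88466472) lie between genes, 68.1, 61.2 and 55.6 kb downstream of Ifnb1, and have Hacd4 as their nearest gene. L5 (chr4:88501688-88504993) and L6 (chr4:88511761-88517568) lie 17.0 and 4.5 kb downstream of Ifnb1. L7 (chr4:88517663-88525648) is the 1 region that overlaps Ifnb1: it covers the whole gene and reaches 2854 bp upstream of its start. L8 (chr4:88535928-88540267) lies 13.1 kb upstream and has Ifnb1 as its nearest gene, and L9 (chr4:88550293-88551098) lies 27.5 kb upstream, 6575 bp from Ifna15. No region within the window overlaps an interferon alpha gene. The distance rule is not close to a boundary upstream, where the next region is 181874 bp away, but it is downstream, where a region over Hacd4 lies 100189 bp away and was left out.

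The 250 bases before the annotated starts of Ifnb1 and Hacd4 are shown because both windows lie inside regions of the table (L7 and L1) and these regions changed in opposite directions with LPS. They come from RefSeq (GRCm38.p6, the same assembly as mm10), minus strand, 5′ to 3′, at chr4:88522795-88523044 and chr4:88438916-88439165. Capitals mark matches to any of 6 motifs searched on both strands: the IRF core AANNGAAA, the interferon-stimulated response element GAAANNGAAA (which contains the IRF core), the NF-kB site GGGANNTTCC, the AP-1 site TGANTCA, the STAT palindrome TTCNNNGAA and the TATA box TATAAA.
Ifnb1: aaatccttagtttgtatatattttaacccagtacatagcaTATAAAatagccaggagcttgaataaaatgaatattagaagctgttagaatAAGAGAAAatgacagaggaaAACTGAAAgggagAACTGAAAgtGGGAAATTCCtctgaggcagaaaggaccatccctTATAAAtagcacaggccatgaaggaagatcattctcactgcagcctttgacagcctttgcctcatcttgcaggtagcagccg
Hacd4: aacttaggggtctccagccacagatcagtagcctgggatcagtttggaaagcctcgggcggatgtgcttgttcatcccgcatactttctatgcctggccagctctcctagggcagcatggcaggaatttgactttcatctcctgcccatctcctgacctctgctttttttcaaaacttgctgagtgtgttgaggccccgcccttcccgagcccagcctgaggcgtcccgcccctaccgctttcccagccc
The Ifnb1 window holds 3 matches to the IRF core, between 159 and 119 bases before the start, followed by 1 match to the NF-kB site, 116 to 107 bases before the start. A TATA box lies 82 to 77 bases before the start and another 210 to 205 bases before it. Of the 32851 RefSeq promoter windows of this length, 21.3% hold the IRF core and 1.2% the NF-kB site, while 4.2% hold the IRF core at 2 or more places. The shares for the other motifs are 3.0% for the response element, 6.7% for the AP-1 site, 7.0% for the STAT palindrome and 12.4% for the TATA box. The Hacd4 window holds no match to any of the 6. The window of Ifna15, which no region of the table overlaps, holds 2 matches to the response element and 1 to the STAT palindrome. These are matches of letters, with no measurement of a factor's binding.

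The values are reads scaled by 1 factor per library. Dividing by that factor gives whole reads for all values, between 5149730 and 26922552 reads per library within regions, with a median of 18 to 89 reads per region. The lowest value in every library is 1 read, held by 19.7% to 29.9% of regions, and no source used here says whether a background was subtracted. A region at 1 read is thus at the lowest value of the table and is not shown to lack H3K27ac. The 8 macrophage markers listed (such as Adgre1) all had regions, with a summed value of 30651 to 48720 in every library. Markers of other cells also moved with treatment: the fibroblast list (3 of 4 markers with a region) summed to 7.5 to 16.4 in untreated libraries and to 398.8 to 12968 in the stimulated ones, nearly all of it from Dcn, while Col1a1 was at 0.419 to 1.97 in all groups but late IL-10, where it reached 63.4. The plasmacytoid dendritic cell list, a cell type known for type I interferon, summed to 8071 to 11341 in untreated, 9328 to 22747 in LPS, 8242 to 14206 in continuous IL-10 and 11861 to 26085 in late IL-10 libraries. Its 5 members did not move together. Siglech was at 710.1 to 1958 in untreated and 125.9 to 175.8 in LPS libraries. Tcf4 (5936 to 8581 and 2490 to 5520) and Spib (26.5 to 97.1 and 1.68 to 20.9) were also lower with LPS. Ccr9 (595 to 842.1 and 3427 to 13690) and Bst2 (407.2 to 732.7 and 3214 to 3411) were higher. Bst2 is also among the interferon-stimulated targets listed below. The neutrophil list (3 of 5) summed to 661.8 to 1508 untreated, 99.1 to 249.9 with LPS, 671.1 to 865.4 with continuous and 311.8 to 815.8 with late IL-10. The LPS sum thus stood below every other group, but of its members only Elane did (569.8 to 1053 untreated, 1.68 to 75.1 with LPS). S100a8 with LPS (95.8 to 174.4) overlapped untreated (90.8 to 454.3) and late IL-10 (173.8 to 382.2). Ly6g was at 0.419 to 5.28 throughout. The T cell list (2 of 4) summed to 184.6 to 407.2 untreated and to 10.1 to 95.1 in the stimulated libraries, and the B cell list (3 of 4) to 2509 to 3246, 1552 to 2046, 1806 to 2561 and 2016 to 3067 in the groups in the same order. The part of these markers in the results was not tested.

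**Figure D1:**
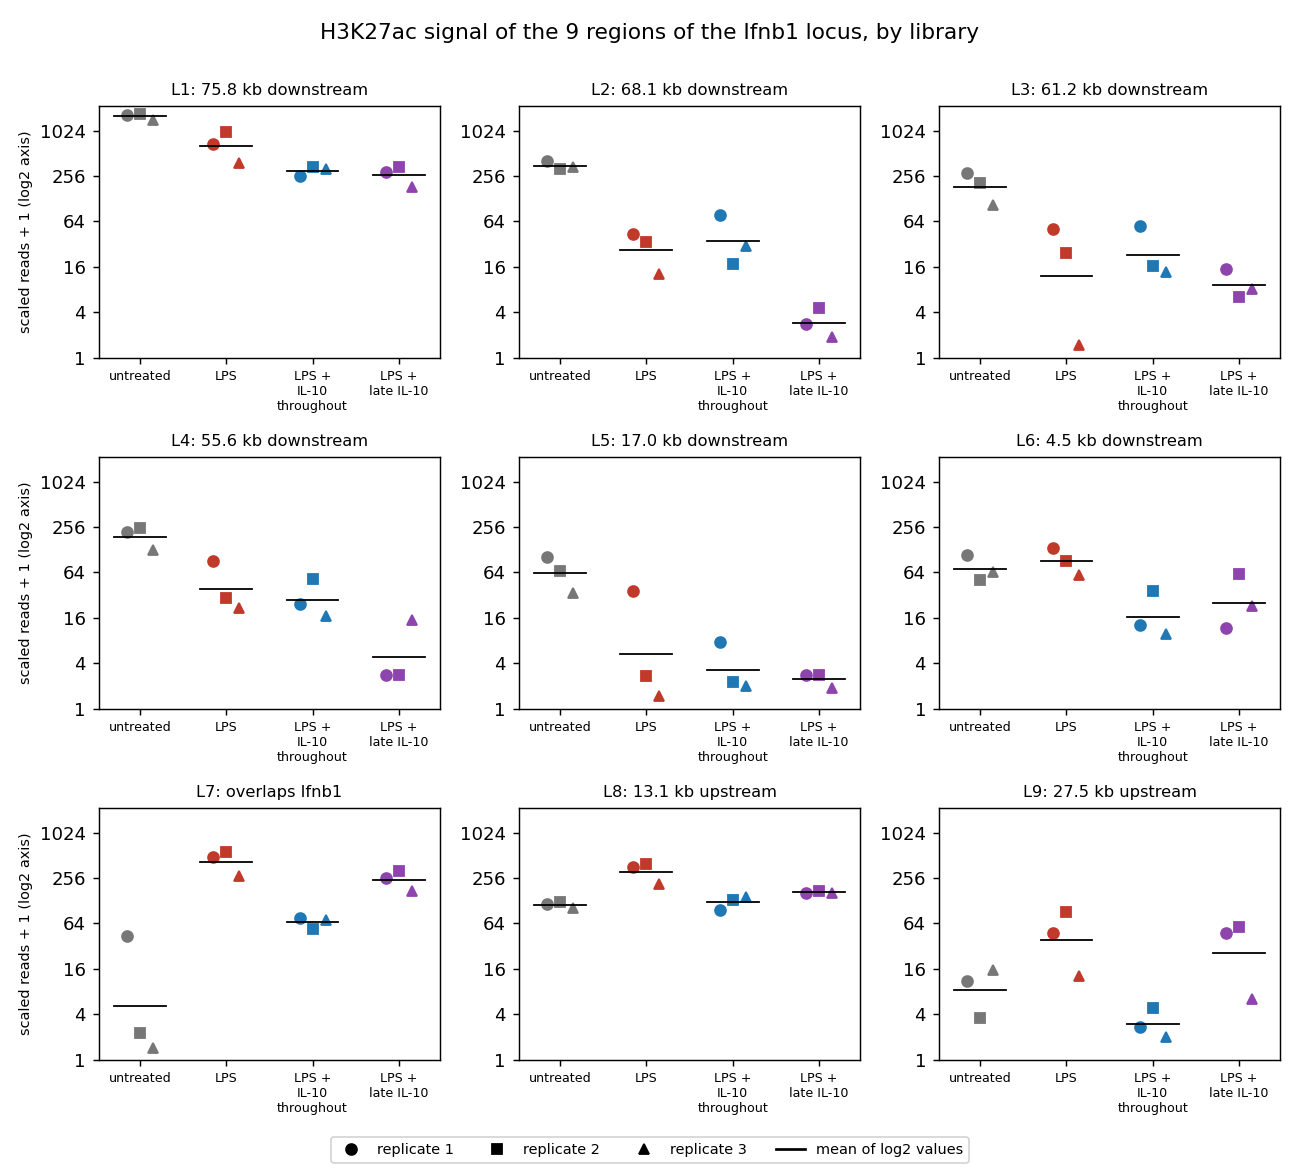
Scaled H3K27ac reads plus 1 (log2 axis) of each of the 9 regions in the 12 libraries; symbols mark the replicate number and lines the mean of the log2 values in each group. L7, over Ifnb1, is near the lowest value in 2 of 3 untreated libraries and at 275.0 to 559.6 in the LPS libraries, while L1 to L4 are highest in the untreated libraries.

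LPS raised H3K27ac over Ifnb1 and at the region 13.1 kb upstream of it, and lowered it at 4 of the 5 regions that lie 17.0 kb or more downstream. L7, the region over the gene, held 43.1, 1.26 and 0.419 scaled reads in untreated replicates 1, 2 and 3, which are 61, 1 and 1 reads. In the LPS libraries it held 491.9, 559.6 and 275.0 scaled reads, or 250, 333 and 593 reads. Every LPS library was above every untreated one, and the untreated level came almost entirely from replicate 1. The group means were 14.9 ± 24.4 untreated and 442.2 ± 149 with LPS (SD, n = 3 each), a ratio of 29.6. The change was 6.35 on the log2(value + 1) scale (SE 1.01, 95% interval 4.18 to 8.52), with an adjusted p of 3.89e-04 in limma, with Benjamini-Hochberg adjustment over all 36621 regions tested. It ranged from 4.56 to 7.89 over the alternatives run, with the call kept in all of them. In such bulk samples, fewer cells with the mark and less of it per cell cannot be told apart.

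The upstream region L8 had a higher H3K27ac level than L7 before stimulation. It held 115.9, 123.5 and 100.9 scaled reads in the untreated libraries and 364.0, 388.2 and 212.9 with LPS. The groups did not overlap, and the ratio of means was 2.84. The log2 change was 1.45 (SE 0.41), with a limma adjusted p of 0.0143, which became 0.0526 without LPS replicate 1 and 0.0664 without LPS replicate 2. Per kb of region, L8 stood at 26.1 scaled reads and L7 at 1.87 in untreated cells, and at 74.1 and 55.4 with LPS. L9, between L8 and Ifna15, held 9.90, 2.52 and 14.2 scaled reads untreated and 47.2, 89.1 and 12.1 with LPS. The lowest LPS library lay within the untreated range, and the log2 change of 2.20 did not pass the test (adjusted p = 0.130), with 2.98 and an adjusted p of 0.0451 without LPS replicate 3, and 0.0243 with DESeq2.

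The downstream regions moved the other way. L1, over the start of Hacd4, held 1646, 1717 and 1428 scaled reads in the untreated libraries and 686.7, 983.1 and 384.9 with LPS. The groups did not overlap, and L1 fell by 1.32 on the log2 scale (SE 0.37, limma adjusted p = 0.0147, and 0.0507 without untreated replicate 1). L2 held 405.1, 315.2 and 332.9 untreated and 43.3, 33.6 and 12.1 with LPS, an 11.8-fold lower mean. It fell by 3.69 (SE 0.80, adjusted p = 0.00319), and this call was kept in every alternative run. L3 went from 277.8, 204.2 and 103.4 to 49.2, 23.5 and 0.464, the last of which is 1 read. Its groups did not overlap, and it fell by 3.90 (SE 1.17, adjusted p = 0.0197, 0.0732 and 0.0571 without untreated replicates 1 and 2, and 0.0647 with edgeR, where the change was -2.98). L4, at 221.3, 245.8 and 124.8 untreated and 90.5, 28.6 and 20.4 with LPS, did not overlap either. Its change of -2.30 missed the threshold (adjusted p = 0.0641) and passed it with the replicate number as a block (0.0403), without LPS replicate 1 (0.0428), with a pseudocount of 10 (0.0177), without trend and robust moderation (0.0474), with DESeq2 (0.0387) and with only the groups compared (0.0420).

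Between these and the gene, L5 and L6 differed from each other. L5 held 102.5, 66.8 and 33.1 scaled reads untreated and 35.4, 1.68 and 0.464 with LPS, of which the latter 2 are 1 read each. Its groups overlapped, since LPS replicate 1 was above untreated replicate 3. L5 fell by 3.57 (SE 1.09, adjusted p = 0.0220), but the call was lost without untreated replicate 1 or 2 (0.0713 and 0.0511), without LPS replicate 2 or 3 (0.0885 and 0.0709), and with edgeR (0.172), DESeq2 (0.133) and only the groups compared (0.0540). L6, which ends less than 100 bases from L7, held 109.6, 49.2 and 63.2 untreated and 135.8, 89.1 and 58.0 with LPS. These groups overlapped, and the change was 0.34 (95% interval -1.42 to 2.10, adjusted p = 0.783).

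In all, 2 of the 9 regions rose and 4 fell with LPS, against 16.5% and 17.9% of all regions tested. With the replicate block 2 rose and 5 fell, while edgeR called 2 higher and 2 lower and DESeq2 called 3 higher and 4 lower. The shares of all regions under these alternatives were not counted. The median change over the 9 regions was -1.32, beside -0.063 over all regions. Summed over the 9 regions, the locus held 2201 to 2932 scaled reads in untreated libraries and 976.1 to 2196 with LPS. L7 made up 0.51% ± 0.83 of that sum untreated and 26.3% ± 1.61 with LPS, whereas the share of L1 went from 61.3% ± 4.59 to 39.8% ± 4.73 (SD, n = 3 each). Across the 12 libraries, L7 correlated with L8 at r = 0.70 and with L9 at r = 0.50, with L6 at r = -0.002, and with L1 to L5 at r between -0.56 and -0.69. These values describe log2 values that share libraries, depth and treatment groups.

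**Figure D2:**
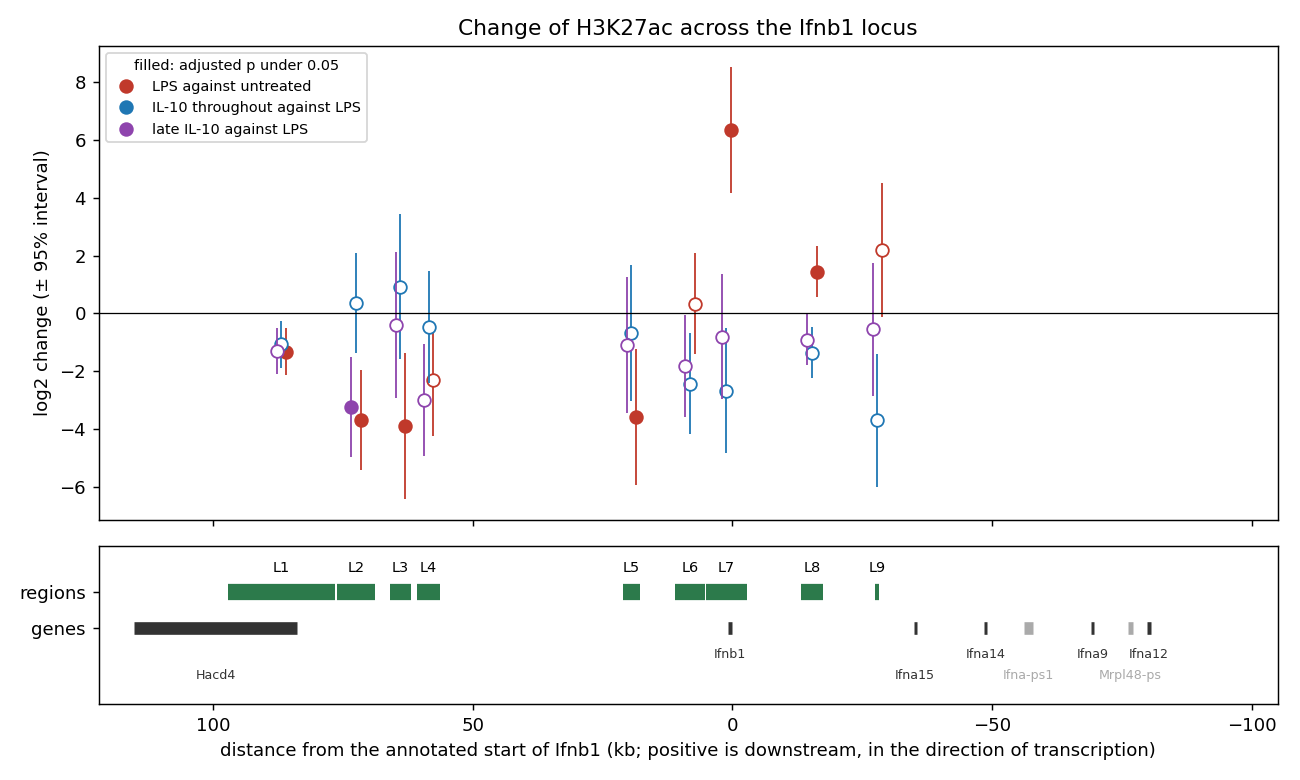
Upper part: log2 change with its 95% interval in each region for LPS against untreated, continuous IL-10 against LPS and late IL-10 against LPS, at the region's distance in kb from the start of Ifnb1 (filled points passed an adjusted p of 0.05). Lower part: the 9 regions and the annotated genes (pseudogenes in grey), with L7 at 6.35 for LPS and L1, L2, L3 and L5 below 0.

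The signal that LPS gave over Ifnb1 was smaller in every library that had IL-10 from the start. L7 held 74.2, 53.3 and 70.0 scaled reads in continuous IL-10 replicates 1, 2 and 3, which are 44, 42 and 71 reads. All 3 were below the lowest LPS library (275.0), and the mean of 65.8 ± 11.0 was 6.72-fold below the LPS mean. Matched by replicate number, 6.9%, 9.3% and 25.3% of the LPS rise was present. These shares also match untreated with continuous IL-10 libraries, which were not shown to be paired. The log2 change was -2.68 (SE 1.01, 95% interval -4.85 to -0.51), and it did not pass the test over all regions (limma adjusted p = 0.147). The same difference passed with the replicate number as a block (adjusted p = 0.0385), with a pseudocount of 10 (0.0243) and with a fit of the groups compared alone (0.0346), and did not pass in the other 12 alternatives, in which its adjusted p reached 0.355.

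The neighbours of L7 had lower values with continuous IL-10 as well. L8 held 94.4, 129.6 and 144.9 scaled reads, all below the LPS libraries and close to the untreated ones. Its change from LPS was -1.35 (adjusted p = 0.0687, 0.0167 with the block, and 0.00588 with DESeq2). L6 held 11.8, 35.6 and 8.87, again below all LPS libraries, with a change of -2.43 (0.101, 0.0356 with the block, and 0.0221 with DESeq2). L9 held 1.69, 3.81 and 0.986 scaled reads, from 1 to 3 reads each. The LPS mean was at least 12.5-fold higher, taking 3 reads per continuous library as the limit. The change of -3.70 had an adjusted p of 0.0581 (0.0166 with the block, 0.00229 with DESeq2 and 0.0481 with median centring). At the other end of the locus L1 held 259.7, 335.3 and 318.3, below all LPS libraries, with a change of -1.07 (0.114, and 0.0171 with the block). Without LPS replicate 3, the library nearest to the continuous IL-10 values at L1, L8 and L9, these 3 regions also passed (0.0175, 0.0213 and 0.0209).

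L2 to L5, the regions between Hacd4 and L6, showed no such separation. L2 held 77.6, 16.5 and 29.6 and L3 held 54.0, 15.2 and 12.8, both overlapping the LPS libraries. L4 (23.6, 52.1 and 15.8) and L5 (6.74, 1.27 and 0.986) overlapped them too. The changes of these 4 regions lay between -0.68 and 0.93, with adjusted p between 0.770 and 0.899.

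Over the 9 regions, the limma test called none higher and none lower with continuous IL-10 against LPS, beside 3.28% and 3.24% of all regions. At an unadjusted p under 0.05, 5 were lower (L1, L6, L7, L8 and L9) and 0 higher. The replicate block called these 5, DESeq2 called 3 lower and edgeR called 0. Shares of all regions at the unadjusted cutoff or under these alternatives were not counted, so these counts have no share to stand beside. Summing L5 to L8, the 4 regions whose overlapped or nearest gene is Ifnb1, gave 870.6 ± 281 scaled reads with LPS and 210.5 ± 20.4 with continuous IL-10 (SD, n = 3 each). This sum for Ifnb1 passed the test where none of its regions did: it changed by -1.99 (SE 0.37, limma adjusted p = 0.00766 over 13481 genes), with an adjusted p between 2.95e-04 and 0.0485 over the alternatives run. The untreated sum was 269.8 ± 90.3, from which LPS raised it by 1.68 (SE 0.37, adjusted p = 0.00411). The late IL-10 sum was 448.5 ± 99.0, a change of -0.92 from LPS (0.278) and of 1.07 from continuous IL-10 (0.139, and 0.0227 with the block).

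**Figure D3:**
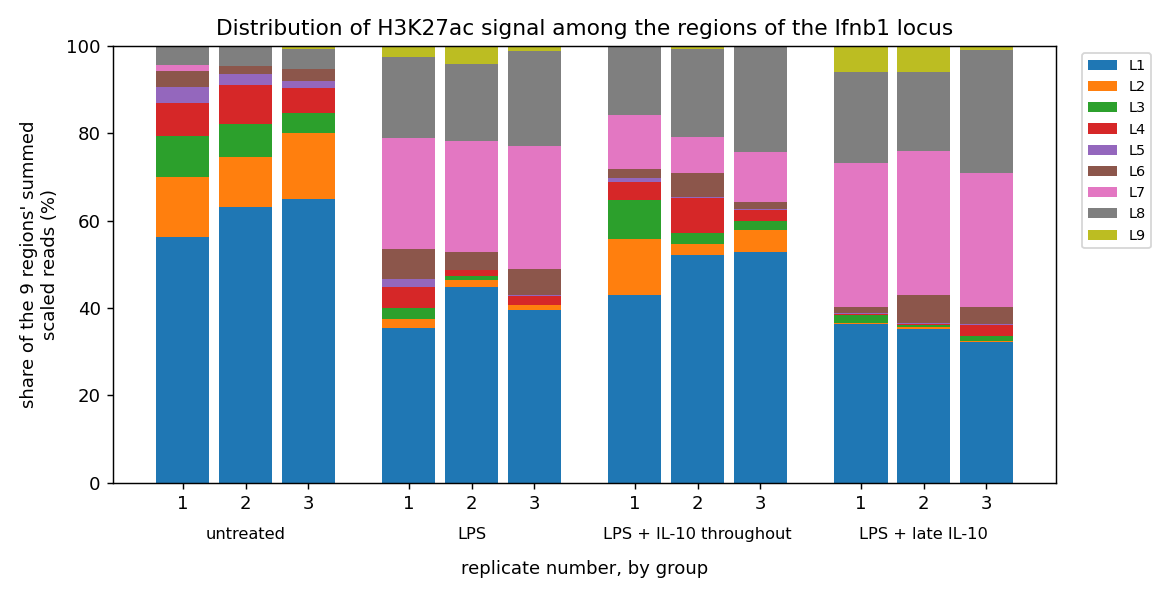
Share of each region in the summed scaled reads of the 9 regions, in percent, for the 12 libraries by group and replicate number. L7 takes 25.3% to 28.2% with LPS, 8.3% to 12.3% with continuous IL-10 and 30.6% to 33.0% with late IL-10, and under 1.5% in untreated libraries.

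When IL-10 was present for 30 min only, the region over Ifnb1 stayed nearer to the LPS level. L7 held 258.9, 317.1 and 173.6 scaled reads, from 147, 177 and 196 reads. The highest of these was above the lowest LPS library, so the groups overlapped, and the mean of 249.9 ± 72.2 was 1.77-fold below the LPS mean. Matched by number, 48.1%, 56.6% and 63.1% of the LPS rise was present. The log2 change was -0.80 (95% interval -2.97 to 1.37, adjusted p = 0.916), an interval that also holds the value found with continuous IL-10.

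L8 held 163.8, 173.8 and 160.3, all below the LPS libraries, with a change of -0.90 (adjusted p = 0.373). L9 held 47.5, 57.3 and 5.31, and L6 held 10.6, 60.9 and 22.1, both overlapping the LPS libraries, with changes of -0.55 (0.979) and -1.82 (0.366). The lowest library of L9 was replicate 3 both with LPS and with late IL-10.

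The 1 region that passed the test with late IL-10 lay downstream, at L2. It held 1.76, 3.58 and 0.886 scaled reads, which are 1, 2 and 1 reads, against 43.3, 33.6 and 12.1 with LPS alone. The groups did not overlap, and the LPS mean was at least 6.68-fold higher, taking 3 reads per late library as the limit. L2 fell by 3.24 (SE 0.80, adjusted p = 0.0417), and the call was lost with a pseudocount of 10 (0.151), with only the groups compared (0.275) and without any of 5 of the 6 libraries: LPS replicate 1 (0.145) or 2 (0.133), or late IL-10 replicate 1 (0.116), 2 (0.0656) or 3 (0.0940). L4 held 1.76, 1.79 and 14.2, which are 1, 1 and 16 reads, below all LPS libraries, with a change of -2.98 (0.105, 0.0492 with the block, 0.0324 with DESeq2, and 0.0331 without late replicate 3). L1 held 285.3, 338.6 and 182.5, also below all LPS libraries, with a change of -1.29 (0.0864, 0.00933 with the block, 0.0470 with median centring, and 0.0162 without LPS replicate 3). L3 (14.1, 5.38 and 7.09) overlapped the LPS libraries (-0.40, 0.993), and L5 was at 1 read in all 3 late libraries (-1.10, 0.858).

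Of the 9 regions 0 were called higher and 1 lower with late IL-10 against LPS, beside 3.14% and 0.396% of all regions. At an unadjusted p under 0.05 there were 0 higher and 5 lower (L1, L2, L4, L6 and L8). The block called 3 lower, DESeq2 2 and edgeR 1, and none called any higher. For the unadjusted cutoff and these alternatives, the shares of all regions were not counted.

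Set directly against each other, the IL-10 schedules differed at L2 in the test over all regions. L2 was lower with late than with continuous IL-10, with a log2 change of -3.59 (SE 0.80, adjusted p = 0.0338) and a continuous mean at least 9.29-fold higher. That call was lost with a pseudocount of 10 (0.0732), with only the groups compared (0.117), and without continuous replicate 1 (0.104), 2 (0.0650) or 3 (0.0891) or late replicate 1 (0.124) or 2 (0.0759). L7 pointed the other way: every late library was above every continuous one, and the late mean was 3.80-fold higher. The change of 1.88 (95% interval -0.29 to 4.05) did not pass (adjusted p = 0.374), nor did it in any alternative run, where the lowest adjusted p was 0.0791. L9 was likewise higher in every late library, but late replicate 3 (5.31) was close to the highest continuous library (3.81). The late mean was at least 9.32-fold higher, taking 3 reads per continuous library as the limit. The change at L9 was 3.15 (0.138, 0.0438 with the block, 0.00925 with DESeq2, and 0.0365 without late replicate 3). L4 was lower in every late library (-2.52, 0.158, and 0.0457 without late replicate 3). L8 had values of 160.3 to 173.8 late and 94.4 to 144.9 continuous, a change of 0.45 (0.652). Of the 9 regions 0 were called higher and 1 lower, beside 1.86% and 0.852% of all regions. At an unadjusted p under 0.05, 1 was higher and 2 lower. With the block 1 was called higher, as with DESeq2, and with edgeR 0. Here too, shares of all regions were counted only for the main test.

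Compared with untreated cells, the region over Ifnb1 was higher, and L1, L2, L4 and L5 were lower, under both IL-10 schedules. With continuous IL-10, L7 was higher by 3.67 (SE 1.01, adjusted p = 0.0173) at 53.3 to 74.2 scaled reads, but untreated replicate 1 alone stood at 43.1. The call was lost with edgeR (0.183), DESeq2 (0.105), only the groups compared (0.0628), and when untreated replicate 2 (0.0671) or 3 (0.0673), or continuous replicate 1 (0.0541), was left out. L1, L2, L4 and L5 were lower, with log2 changes of -2.77 for L4 (adjusted p = 0.0399) and -4.25 for L5 (0.0123), and with L1 at -2.39 (4.70e-04) and L2 at -3.33 (0.00840). The call for L4 was lost without any untreated replicate (0.121, 0.125 and 0.0605) or without continuous replicate 1 (0.1004) or 3 (0.115), and with median centring (0.0660), a pseudocount of 0.1 (0.0596) and edgeR (0.0510). That for L5 was lost without continuous replicate 2 (0.0510). L3 had a change of -2.97 that missed the threshold (0.0851) and passed it with a pseudocount of 10 (0.0143), DESeq2 (0.0349) and only the groups compared (0.0168). L6 had one of -2.09 (0.0834, and 0.0469 with DESeq2) and L9 one of -1.50 (0.363). L8 was near its untreated level (0.10, 95% interval -0.78 to 0.98). This made 1 region higher and 4 lower, beside 11.0% and 12.4% of all regions.

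With late IL-10, L7 was higher than in untreated cells by 5.55 (SE 1.01, adjusted p = 9.31e-04) and L1 to L5 were all lower, from -2.61 for L1 (1.80e-04) to -6.93 for L2 (4.22e-05). At L2 the untreated mean was at least 79.1-fold higher, and at L5 at least 15.2-fold. These 6 calls were kept in every alternative run. L6 (-1.48, 0.175), L8 (0.55, 0.316) and L9 (1.65, 0.250) did not pass. This made 1 region higher and 5 lower, beside 18.1% and 18.6% of all regions. The comparisons share untreated or LPS libraries, so their values are not independent of each other.

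Outside the locus, the regions whose log2 values followed L7 most closely over the 12 libraries, by Pearson correlation, overlapped Gm973 (r = 0.975), Rpap2 (0.971), Crkl (0.970) and Dennd6b (0.969), with another 23881 bp from Hs1bp3 (0.969). Crkl encodes a signalling adaptor and Rpap2 an RNA polymerase II phosphatase. The Gm973 region averaged 3.9 ± 5.2 scaled reads untreated, 242.4 ± 84.4 with LPS, 55.5 ± 10.4 with continuous and 229.9 ± 61.7 with late IL-10 (SD, n = 3 each). The Hs1bp3 region, at 57.1 ± 92.0, 2300 ± 1220, 436.8 ± 238 and 903.8 ± 503, had a late mean further below its LPS mean. These regions were picked for their likeness from all regions tested.

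The other genes of the type I interferon pathway were followed through a list of 51 genes by role, with each gene's value the sum over its regions. Of these, 49 were tested; Mx1 and Mx2 were not. With LPS 28 rose and 2 fell, beside 14.2% and 13.3% of all genes, and the median change was 1.65 against -0.11 over all genes. The replicate block called 33 higher and 3 lower, with no share of all genes counted under it. Of the 10 genes of LPS sensing and relay, Cd14, the LPS co-receptor, rose by 1.65 (limma adjusted p = 7.29e-04) and Ikbke, a kinase related to TBK1, by 1.12 (0.00480). Tlr4 itself changed by -0.90 (0.269, and 0.0165 with the block). Of the 12 factors that act at the Ifnb1 enhancer or related ones, Irf7 rose by 3.28 (4.62e-05), Nfkb1 by 1.85 (0.00593) and Irf1 by 1.08 (0.00296), and Irf8 fell by 1.76 (2.83e-04). Irf3, which is activated by phosphorylation, stood at 0.12 (0.882).

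Downstream of the interferon receptor, Tyk2 rose by 2.08 (adjusted p = 5.26e-05) and Stat2 by 2.08 (2.80e-04), Irf9 rose by 1.04 (0.0275), and Jak1 fell by 1.24 (0.00140). The Irf9 call was lost with median centring (0.0606) and when untreated replicate 1 (0.0661), 2 (0.0740) or 3 (0.0558), or LPS replicate 2 (0.102) or 3 (0.0532), was left out. The receptor genes Ifnar1 and Ifnar2 stood at -0.01 (0.978) and -0.08 (0.861), and both values were above 0 with edgeR and DESeq2, as was that of Ifnar1 with median centring. All 14 tested interferon-stimulated targets rose, with a median of 3.43. The largest were Cxcl10, a chemokine (4.86, 3.01e-06), Rsad2, the antiviral protein viperin (4.58, 1.72e-04), and Oasl1 (4.49, 2.56e-04). The call for Ifit3 (4.19, 0.0169) was lost with edgeR (0.0508), without the third untreated library (0.0810) and without LPS replicate 1 (0.0606) or 2 (0.0660). Among 6 feedback inhibitors 5 rose, led by Socs1 (4.12, 8.89e-05), Usp18 (3.01, 0.00374) and Tnfaip3 (2.84, 0.00278).

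**Figure D4:**
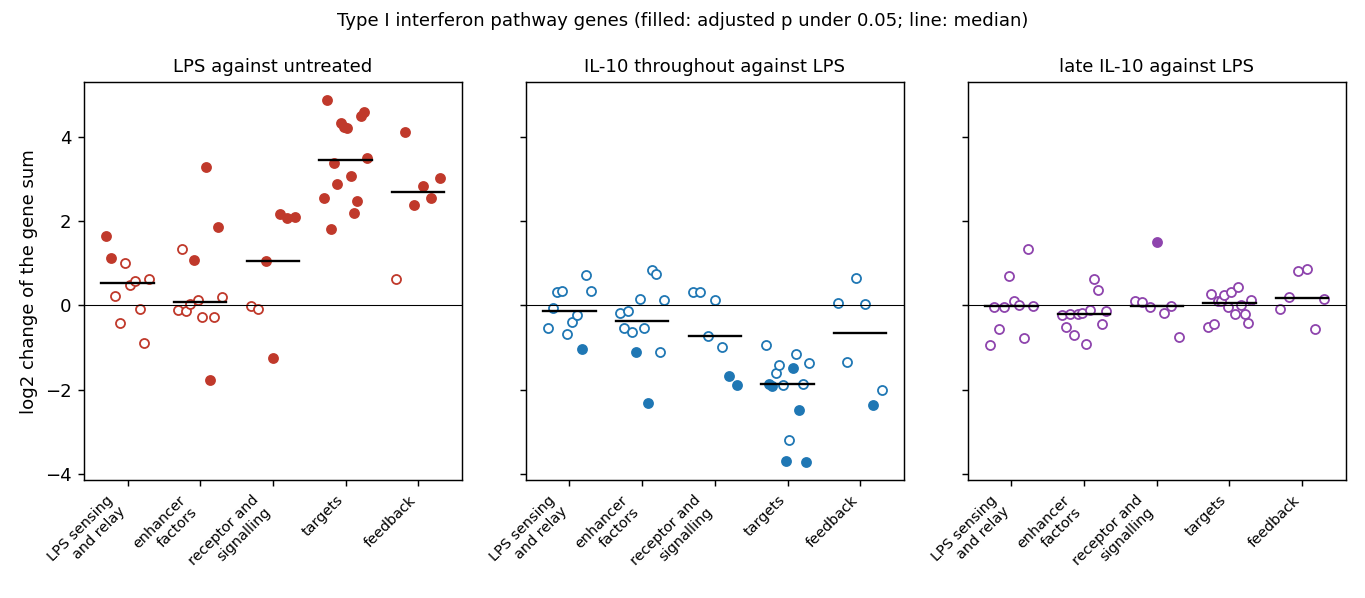
Log2 change of the H3K27ac sum of each tested pathway gene by role group, for LPS against untreated, continuous IL-10 against LPS and late IL-10 against LPS; filled points passed an adjusted p of 0.05 and lines are medians. The targets have a median of 3.43 with LPS, -1.86 with continuous IL-10 and 0.05 with late IL-10.

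With continuous IL-10 against LPS, 0 of the 49 genes rose and 12 fell, beside 2.60% and 3.20% of all genes, and the median was -0.74 against 0.03 over all genes. At an unadjusted p under 0.05, 3 were higher and 25 lower. Shares of all genes were not counted at that cutoff or under the alternatives that follow. With the block 3 were higher (Irf8, adjusted p = 0.00947; Jun, 0.0219; Socs3, 0.0289) and 24 lower, all 14 tested targets among them; edgeR called 1 higher and 7 lower and DESeq2 2 and 14. Among the called targets, the largest falls were those of Rsad2 (-3.72, 0.00451), Ifit2 (-3.68, 0.0218) and Oas3 (-2.49, 0.00977), beside Ddx58, Cxcl10 and Isg15. Ifit3 had a change of -3.21 that did not pass (0.142), and the median over the 14 was -1.86. The signalling genes Tyk2 (-1.89, 8.14e-04) and Stat2 (-1.68, 0.00666) fell, as did the factors Irf7 (-2.32, 0.00327) and Irf1 (-1.10, 0.0125). Ticam2, the TRAM adaptor of TLR4, fell by 1.05 (0.0467), and Trim21, a ubiquitin ligase of the feedback group, by 2.37 (0.0112). Socs3, which IL-10 is known to induce, was at 0.64 (0.103). Leaving out LPS replicate 1 or 2 ended the calls for Ticam2 (0.154 and 0.226), Ifit2 (0.0955 and 0.101), Cxcl10 (0.0650 and 0.0640), Ddx58 (0.0627 and 0.0681), Isg15 (0.0757 and 0.112) and Trim21 (0.0558 and 0.0673), and leaving out continuous replicate 2 ended those for Irf1 (0.0681), Cxcl10 (0.0614), Ddx58 (0.0540), Ifit2 (0.0668), Isg15 (0.0919) and Ticam2 (0.151). Ticam2 was also lost without continuous replicate 1 (0.121) or 3 (0.0983), as were Ifit2 (0.0671) and Isg15 (0.102) without continuous replicate 3. Median centring ended the calls for Ticam2, Ifit2, Cxcl10, Ddx58, Isg15 and Trim21, edgeR those for Ticam2, Ifit2, Cxcl10, Ddx58 and Oas3, and the fit of only the groups compared those for Ticam2, Ifit2, Cxcl10, Ddx58, Isg15, Irf1 and Oas3; without trend and robust moderation Ticam2, Ifit2 and Isg15 were lost.

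With late IL-10 against LPS, 1 of the 49 genes rose and 0 fell, beside 3.19% and 0.260% of all genes, and the median was -0.03 against -0.16. The 1 gene was Jak1, a kinase used by both the interferon and the IL-10 receptor, at 1.501 (SE 0.23, limma adjusted p = 0.00205, and 0.0511 in a fit of the groups compared alone). The 14 targets had changes between -0.51 (Bst2) and 0.43 (Oas2), with a median of 0.05 and 0 called in either direction, also at an unadjusted p under 0.05. With the block 4 genes were called higher (Jak1; Tlr4, 1.35, adjusted p = 0.00562; Socs3, 0.80, 0.0126; Tnfaip3, 0.87, 0.0451) and 4 lower (Cd14, -0.95, 0.00538; Ticam2, -0.78, 0.0487; Irf5, -0.93, 0.0113; Tyk2, -0.75, 0.0391). At an unadjusted p under 0.05 the counts were 4 and 4, with edgeR 1 and 0, and with DESeq2 3 and 1. Shares of all genes were not counted for the block, that cutoff, edgeR or DESeq2.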

How the data were processed

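The deposited table gives H3K27ac signal per region for 12 libraries, and the input library was left out. The tools named by the submitters' processing notes are DiffBind, MACS2, Bowtie2 and Trim Galore, on mm10, with no settings; per the deposited values, the signal is whole reads (within 0.0001) times 1 factor per library. The members and gene lists were chosen with earlier results of these data known. Each comparison was tested with limma 3.58.1 (trend and robust moderation, R 4.3.3) on log2(value + 1) over all 12 libraries, with group as the only term, after dropping regions in the lowest 10% by mean, and Benjamini-Hochberg adjustment at 0.05 over the 36621 regions or 13481 genes left. A gene's value sums the regions that overlap it or, for a region over no gene, lie nearest to it within 100 kb (RefSeq, GRCm38.p6). A median centring, other pseudocounts (10 and 0.1), no filter, no moderation, the groups compared alone, a replicate block, each library left out, and edgeR 4.0.16 and DESeq2 1.42.0 on the recovered reads were run as alternatives. Count models were not the main test because the deposited values are scaled. The code was tested on simulated data. Every region within 100 kb is named, with the 5 regions outside it most correlated with L7, and up to 3 called genes per role, direction and comparison; other pathway genes were named after their values were seen. Values of 1 pathway gene are not reported here.

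The replicate numbers were taken to pair the libraries in the block and in the shares matched by number, while the main test left the pairing out. Deviations from the group means correlated between 0.099 and 0.712 over the 18 pairs of equal number and between -0.584 and 0.370 over the others. Of 12 libraries, 11 correlated best with their own number. The lowest value, of untreated and continuous IL-10 replicate 1, leaves that comparison unpaired. In each group replicate 3 had the most reads in regions (26922552 untreated, 20884182 with LPS, 10035619 with continuous and 11083204 with late IL-10). Numbers 1 and 2 were less clearly apart: continuous replicate 1 correlated at 0.370 with late replicate 2 and at 0.258 with late replicate 1. The part of depth in these correlations was not tested, so the pairing is an assumption. For the regions, blocked values stand beside the results whose call they change, except in the comparison left unpaired. For the pathway genes some are given only as counts.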

Additional observations from a re-analysis of the deposited data

How the results depend on the processing

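Of 54 region changes (9 regions in 6 comparisons), 19 passed the threshold, 10 of them under all 15 alternatives run for each, and none of the 19 reversed; of the 35 that missed it, 13 passed under some alternative. Counts of called regions moved as follows, with no count of the shares of all regions or genes under the same settings. For LPS against untreated, DESeq2 called 3 higher, edgeR called 2 lower, and leaving out 1 library gave 1 to 3 higher and 1 to 5 lower. A pseudocount of 10, no moderation and the block each gave 5 lower. For continuous IL-10 against LPS, 1 was lower with median centring, with a pseudocount of 10 and with only the groups compared, 3 with DESeq2 and 5 with the replicate block, and 0 to 3 without 1 library. For late IL-10 against LPS, 2 were lower with median centring and DESeq2, 3 with the block, 0 with a pseudocount of 10 and with only the groups compared, and 0 to 2 without 1 library. For late against continuous IL-10, 1 was higher with the block and DESeq2, 0 were lower with a pseudocount of 10 and with only the groups compared, and leaving out 1 library gave 0 to 1 higher and 0 to 2 lower. For continuous IL-10 against untreated, 0 were higher with edgeR, DESeq2 and only the groups compared, and 0 to 1 without 1 library. Instead of 4 lower, DESeq2 gave 6, as did the block, with the libraries not shown to be paired there. A pseudocount of 10 and only the groups compared gave 5 lower. Median centring, a pseudocount of 0.1, edgeR and leaving out any 1 library gave 3 lower. For late IL-10 against untreated no setting moved the counts. Of the pathway genes, with continuous IL-10 against LPS 1 was higher with median centring and edgeR, 2 with DESeq2 and 3 with the block (0 to 2 without 1 library), while 6 were lower with median centring and with only the groups compared, 7 with edgeR and 24 with the block (6 to 19 without 1 library). With late IL-10 against LPS, 4 were higher with the block, 3 with DESeq2 and 0 with only the groups compared, and 4 were lower with the block and 1 with DESeq2 (0 to 1 without 1 library). The cause of these moves was not tested.

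Signs turned only when 1 library was left out, in 11 changes that had missed the threshold. Over the libraries left out, for continuous IL-10 against LPS these ran from -0.23 to 0.85 at L2, -0.60 to 1.95 at L3, -0.93 to 0.15 at L4 and -1.60 to 0.72 at L5. For late IL-10 against LPS they ran from -1.93 to 0.62 at L3, -2.02 to 0.30 at L5 and -1.33 to 0.47 at L9. For late against continuous IL-10 they ran from -0.41 to 0.038 at L1, -0.78 to 0.20 at L5 and -0.026 to 1.18 at L6, and for continuous IL-10 against untreated from -0.031 to 0.27 at L8.

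Median centring moved the median of all regions from -0.063 to 0.188 for LPS against untreated and from -0.038 to 0.296 for continuous IL-10 against untreated, and the share of higher calls in the latter from 47.1% to 58.7%; for continuous IL-10 against LPS that share was 50.3%, and 40.3% with DESeq2. The 1-read values at L2, L3, L4, L5, L7 and L9 limit the size of their folds.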

Other observations

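The rest of the interferon gene cluster, upstream of the 100 kb window, was looked at for its values alone. Between the window and Ifne lie 22 regions. The first, chr4:88704668-88711700, held 184.5, 155.1 and 195.5 scaled reads in the untreated libraries and 1 read in each of the 9 stimulated ones. Of the regions from 88756912 to 88806184 on chromosome 4, 13, of 861 to 954 bp and a median of 2928.5 bp apart, were at exactly 1 read in all 12 libraries. The other two of that stretch, after the first of the 13, reached 20 reads (chr4:88759788-88760784, at 7.78, 11.3 and 8.37 scaled reads untreated) and 7 reads (chr4:88762626-88763725). The 13 lie over or beside Ifnz and a row of predicted genes such as Gm13276 and Gm13277. The genes of this cluster have close copies of each other, and how reads matching several copies were counted is not stated, so values there are uncertain. Of all 40691 regions, 586 (1.44%) were at 1 read in all libraries.

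The last 3 of the 22 regions differed by replicate number. The region chr4:88844386-88845517, whose nearest gene is Ifna4, held 76.7 and 33.6 scaled reads in LPS replicates 1 and 2 and 0.464 in replicate 3. With late IL-10 it held 31.7, 3.58 and 0.886, and it was at 1 read in every untreated and continuous IL-10 library. The region chr4:88864321-88866862, whose nearest gene is Ifne, held 173.1 and 183.2 in LPS replicates 1 and 2 and 146.2 and 207.8 in late IL-10 replicates 1 and 2, but 1.39 and 0.886 in replicate 3 of these groups and 1 read in all continuous IL-10 libraries. Its untreated values were 62.2, 29.0 and 23.9. LPS replicate 3, with 20884182 reads in regions, was the deepest of the stimulated libraries. At L9 the same replicate was the lowest with LPS (12.1 against 47.2 and 89.1) and with late IL-10 (5.31 against 47.5 and 57.3). The region chr4:88830218-88831298, nearest to Ifna6, held 68.9, 23.5 and 0.464 with LPS and at most 3.52 in any other library.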
